A study of Mus musculus with 12 samples.

Results

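The 9 genes described here encode parts of the canonical and non-canonical inflammasome pathways and their interleukin-1 output. They are the sensors Nlrp3 and Aim2, the adaptor Pycard, the caspases Casp1 and Casp4, the pore-forming protein Gsdmd, the cytokines Il1b and Il18, and the receptor antagonist Il1rn. They were chosen by gene symbol from the 23863 genes of the count table, all 9 were found there, and all 9 passed the filter on low counts that left 13236 genes for testing. RNA was sequenced from osteoclast precursors sorted from mouse bone marrow as CD45R-, CD3-, CD11b-/lo and CD115+ cells, which are myeloid progenitors able to become bone-resorbing osteoclasts. The 4 groups of 3 libraries were female cells in M-CSF with 30 ng/ml RANKL, male cells in M-CSF with 30 ng/ml RANKL, female cells in M-CSF alone and male cells in M-CSF alone. M-CSF is the survival factor of these cells, and RANKL is the cytokine that drives them into osteoclasts. All donors, controls included, carried 1 floxed and 1 unmodified Runx1 allele, tagged WT in the titles with no Cre named, and their age is not given in the sources used here. Culture lasted 3 days by the titles, but longer by the growth protocol. Whether a group's libraries represent different animals is not stated, and the p-values accordingly measure library-to-library spread, which may be technical.

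Inflammasomes are protein platforms that form when a cytosolic sensor meets a danger signal. NLRP3 responds to ion fluxes and crystals, AIM2 binds cytosolic DNA, and both recruit the adaptor ASC, the product of Pycard, which gathers and activates caspase-1. Caspase-1 matures the cytokines IL-1β and IL-18 and cleaves gasdermin D, the product of Gsdmd, whose freed part makes membrane pores. The product of mouse Casp4, also called caspase-11, is activated by cytosolic lipopolysaccharide and cleaves gasdermin D without an NLR sensor. IL-1β is known to promote osteoclast formation and bone loss, and IL-1 receptor antagonist blocks the receptor that it uses. Activation of this pathway occurs at the level of protein cleavage, which RNA libraries do not measure.

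Casp1 and Casp4 are neighbours on chromosome 9, where Casp4 starts 1562 bases after the end of Casp1, and they are shown here because they moved in opposite directions with RANKL. Nlrp3 and Il1rn are shown as the member with the lowest and the member with the highest fold change. Upstream sequence for 8 of the 9 members came from RefSeq (GRCm38.p6), and each line gives the bases before 1 annotated start, 5′ to 3′ on the gene's strand, ending before the first annotated exon base. Capitals mark matches, on either strand, to the AP-1 site TGANTCA, bound by Fos and Jun proteins, or to the PU box GAGGAA, bound by the myeloid factor PU.1. These lines were selected after the matches and the values were seen.
Nlrp3 (chr11:59542436-59542685, + strand): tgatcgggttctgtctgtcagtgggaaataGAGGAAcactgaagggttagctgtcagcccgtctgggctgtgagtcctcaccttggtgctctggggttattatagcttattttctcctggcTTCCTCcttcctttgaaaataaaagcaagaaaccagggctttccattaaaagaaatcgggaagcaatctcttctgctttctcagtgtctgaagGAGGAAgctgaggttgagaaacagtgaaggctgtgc
Casp1 (chr9:5298267-5298516, + strand): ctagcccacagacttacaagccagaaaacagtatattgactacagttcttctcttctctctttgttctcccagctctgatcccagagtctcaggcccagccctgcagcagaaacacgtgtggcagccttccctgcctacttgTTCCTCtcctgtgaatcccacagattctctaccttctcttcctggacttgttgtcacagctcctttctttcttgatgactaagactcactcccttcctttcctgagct
Casp4 (chr9:5308599-5308827, + strand): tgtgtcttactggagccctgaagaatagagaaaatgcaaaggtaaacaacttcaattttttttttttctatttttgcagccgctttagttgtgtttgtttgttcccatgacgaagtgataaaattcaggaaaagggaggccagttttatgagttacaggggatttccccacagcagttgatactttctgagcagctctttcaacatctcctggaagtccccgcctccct
Il1rn (chr2:24336610-24336852, + strand): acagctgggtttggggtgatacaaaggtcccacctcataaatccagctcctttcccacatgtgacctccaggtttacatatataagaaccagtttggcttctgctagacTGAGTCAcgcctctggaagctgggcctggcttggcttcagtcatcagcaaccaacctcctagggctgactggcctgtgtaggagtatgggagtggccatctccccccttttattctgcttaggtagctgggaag
The Nlrp3 window, which precedes the downstream one of its annotated starts and lies outside annotated exons, held 3 PU boxes, the Casp1 window held 1, and the Il1rn window held 1 AP-1 site. No match lay in the Casp4 window. Of the 32851 promoter windows of 250 bases in the RefSeq table, 23.3% held a PU box and 6.75% an AP-1 site. PU boxes were also present upstream of Pycard (1) and Aim2 (2), and the Aim2 window held 1 match to the NF-kB-like site GGGANTTTC, which 0.941% of all windows hold. The windows of Il1b and Il18, and those at the further annotated starts of Nlrp3, Casp4 and Il1rn, held no match to these motifs, to the interferon-response-like GAAANNGAA (7.13% of all windows) or to the cyclic AMP site TGACGTCA (1.55%). None of the matches in the members' windows overlapped another. Only the spellings given here were searched, and other forms of these sites were not looked for, in Casp4 or elsewhere. These matches describe letters and say nothing of binding.

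Total counts per library were between 14303174 and 15246430 in female M-CSF+RANKL libraries, 14379792 and 15983769 in male M-CSF+RANKL libraries, 10646697 and 12970278 in female M-CSF libraries, and 10814687 and 14113420 in male M-CSF libraries. The osteoclast genes Acp5 and Ctsk were higher with RANKL by 11.15 ± 0.17 and 12.20 ± 0.35 on the log2 scale (SE), while Csf1r, the M-CSF receptor, differed by -0.05 ± 0.09 (adjusted p = 0.614, edgeR). The 12 osteoclast markers summed to between 29977 and 39974 CPM in M-CSF+RANKL libraries and to between 74.0 and 80.1 CPM in M-CSF libraries, with Calcr at 0 in M-CSF alone. The 14 macrophage and monocyte markers summed to between 3078 and 3406 CPM with RANKL and to between 6904 and 7834 CPM without it. Of these 14, 11 fell, 0 rose and 3 did not pass, with a median log2 fold change of -3.48. Much of the sum with RANKL came from Csf1r (means of 1425 CPM in females and 1447 in males) and Cd68 (1395 and 1440), which did not pass. In bulk RNA, fewer cells of a type and less RNA per cell cannot be told apart, so each change below is a change of the culture. In female M-CSF+RANKL replicate 3, the tested macrophage, neutrophil and interferon-stimulated genes had mean log2 CPM of 5.54, 4.61 and 3.55, each the highest of the 6 M-CSF+RANKL libraries. In male M-CSF replicate 2 the interferon-stimulated genes averaged 5.09, whereas the 5 remaining M-CSF libraries lay between 3.34 and 4.06. The 7 dendritic cell markers summed to 35.9 to 51.7 CPM with RANKL, against 19.0 to 26.0 CPM in M-CSF alone. Of the 6 tested, 2 rose, 1 fell and 3 did not pass, with a median log2 fold change of 0.13. The part of dendritic cell markers in the results was not tested. Lymphocyte markers, of which 4 of 9 were in the count table, summed to at most 4.43 CPM in any library. Mast cell (2 of 5 in the count table), erythroid (1 of 6) and stromal markers (3 of 5) summed to less than 1 CPM.

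With RANKL, the members split into a group that rose and a group that fell. Casp4, Gsdmd, Il1b and Il1rn rose, and Nlrp3, Aim2, Pycard, Casp1 and Il18 fell, by edgeR's quasi-likelihood test on the mean of the female and male log2 fold changes (Benjamini-Hochberg adjusted p below 0.05 over all genes). Over all genes tested, 33.4% rose and 31.3% fell in this comparison, so 4 of 9 risers and 5 of 9 fallers are to be read against a treatment that moved most of the transcriptome. The median log2 fold change was -0.32 over the 9 members and 0.02 over all genes tested. Within females, 4 members rose, 4 fell and Aim2 did not pass, where 26.8% of all genes rose and 25.1% fell. Within males, 4 rose and 5 fell, where 28.4% of all genes rose and 26.6% fell. Levels are given as CPM (read counts scaled to library size by TMM) for replicates 1, 2 and 3 in that order. Where a member's libraries are said not to overlap between treatments or sexes, the share of all genes that did the same was not counted.

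**Figure D1:**
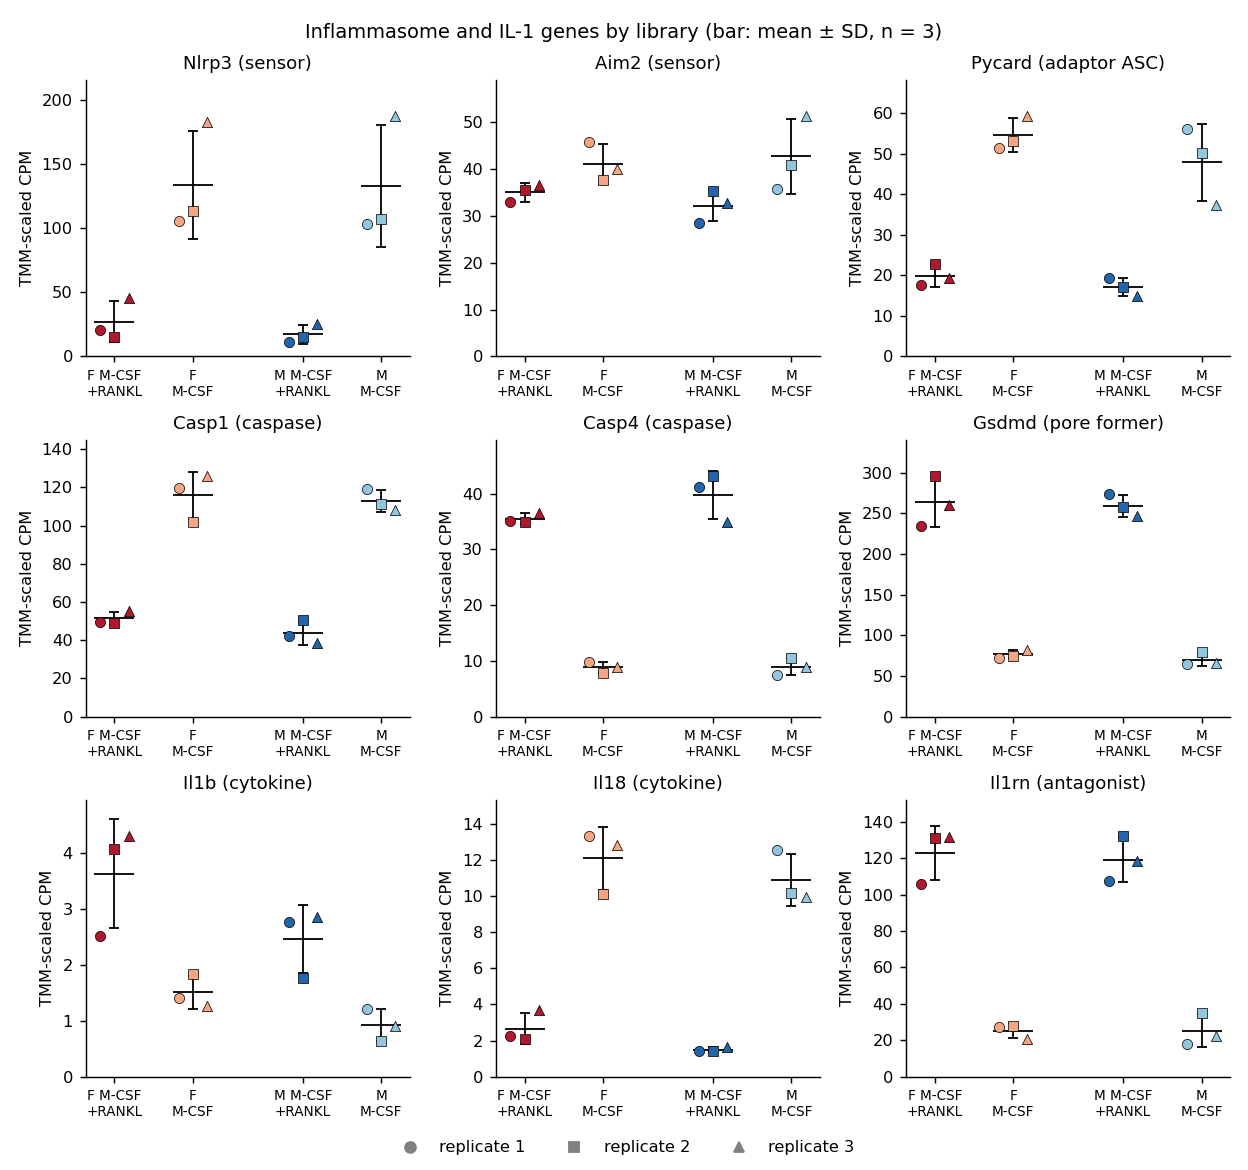
TMM-scaled CPM of the 9 members in each of the 12 libraries, with 1 panel per gene and a vertical axis from 0. Marker shapes give the replicate number, horizontal bars and whiskers the mean ± SD of 3 libraries, F female and M male; Casp4, Gsdmd and Il1rn are higher in every M-CSF+RANKL library than in any M-CSF library, Nlrp3, Pycard, Casp1 and Il18 are lower in every one, and Aim2 and Il1b overlap across the 6 libraries of each treatment.

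Of the sensors, Nlrp3 (ENSMUSG00000032691, chr11:59541568-59566956, + strand, mm10) fell the most of all members. Female M-CSF+RANKL libraries had 20.5, 15.3 and 45.4 CPM of Nlrp3, against 106, 114 and 183 CPM in female M-CSF libraries. Male M-CSF+RANKL libraries had 11.0, 14.9 and 25.5 CPM, against 104, 107 and 188 CPM in male M-CSF libraries. The treatments did not overlap, and replicate 3 was the highest library in each of the 4 groups. The mean log2 fold change was -2.63 ± 0.29 (SE, adjusted p = 2.35e-06), which is 6.19-fold lower with RANKL. Without female M-CSF+RANKL replicate 3 it was -2.92.

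Aim2 (ENSMUSG00000037860, chr1:173350879-173466040, + strand) changed the least of the members. Its level was 32.8, 35.4 and 36.7 CPM in female M-CSF+RANKL libraries, against 45.8, 37.5 and 39.9 CPM in female M-CSF libraries. In males it was 28.5, 35.2 and 32.7 CPM with RANKL, against 35.7, 40.9 and 51.3 CPM in M-CSF alone. Within each sex every RANKL library lay below every M-CSF library, though by small margins, and across the sexes the treatments overlapped. The mean log2 fold change of Aim2 was -0.32 ± 0.10 (SE, adjusted p = 0.0109); in females alone it was -0.23 ± 0.14 (adjusted p = 0.184) and in males alone -0.41 ± 0.14 (adjusted p = 0.0226). The male call was lost without male M-CSF+RANKL replicate 1 (-0.33, adjusted p = 0.100) and without male M-CSF replicate 3 (-0.26, adjusted p = 0.128). Cadm3, which overlaps Aim2 on the other strand, had 136 counts over the 6 M-CSF+RANKL libraries and 2 over the 6 M-CSF libraries, few beside the 3017 and 3117 counts of Aim2.

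The adaptor Pycard (ENSMUSG00000030793, chr7:127989708-127993867, - strand), which links both sensors to caspase-1, fell in both sexes. Female M-CSF+RANKL libraries held 17.5, 22.8 and 19.4 CPM of Pycard, against 51.5, 53.1 and 59.4 CPM in female M-CSF libraries. In male libraries its level was 19.5, 17.1 and 14.8 CPM with RANKL, against 56.0, 50.2 and 37.4 CPM in M-CSF alone. No RANKL library reached the lowest M-CSF library, and the mean log2 fold change was -1.47 ± 0.11 (SE, adjusted p = 6.2e-08). Gm45205, an experimentally unverified gene on the other strand, overlaps Pycard and had 3 counts over the 6 M-CSF+RANKL libraries and 1 over the 6 M-CSF libraries, against 1658 and 3745 for Pycard. Of the 50-base words of Pycard transcripts, 11.5% are also found, on either strand, in Gm45205 transcripts. The share found in transcripts of Mvp, the gene of the major vault protein, was 0.159%; Mvp had 40461 counts with RANKL and 12139 in M-CSF alone and rose by 1.45 on the log2 scale (adjusted p = 1.42e-09). The strand setting of the counting is not given in the sources used here; without it, reads of such overlapping pairs cannot be told apart.

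The inflammatory caspases moved apart. Casp1 (ENSMUSG00000025888, chr9:5298517-5307265, + strand), which encodes the enzyme that matures IL-1β and IL-18, was at 49.6, 49.2 and 55.4 CPM in female M-CSF+RANKL libraries, against 119, 102 and 126 CPM in female M-CSF libraries. Male libraries had 42.4, 50.7 and 38.5 CPM of Casp1 with RANKL, against 119, 111 and 108 CPM in M-CSF alone. Every RANKL library was lower than every M-CSF library, and Casp1 fell by a mean log2 fold change of -1.27 ± 0.08 (SE, adjusted p = 1.21e-08). Casp4 (ENSMUSG00000033538, chr9:5308828-5336783, + strand), which encodes the lipopolysaccharide-activated caspase, was at 35.0, 34.8 and 36.6 CPM in female M-CSF+RANKL libraries, against 9.76, 7.72 and 8.96 CPM in female M-CSF libraries. Its male values were 41.1, 43.2 and 34.9 CPM with RANKL, against 7.42, 10.5 and 8.84 CPM in M-CSF alone. Casp4 was higher in all RANKL libraries, with a mean log2 fold change of 2.08 ± 0.10 (SE, adjusted p = 6.64e-10), a 4.23-fold rise. None of the 50-base words of Casp1 transcripts is found in Casp4 transcripts.

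The ratio of these caspases was taken per library as CPM per kilobase of exon. Casp4 over Casp1 had a median of 0.315 in M-CSF+RANKL libraries (0.266 to 0.391, n = 6), against a median of 0.0317 in M-CSF libraries (0.0252 to 0.0380, n = 6). The ranges were far apart, which the opposite changes of the genes already fix. A permutation test run on the ratio was therefore not used as support. Casp1 remained the more abundant transcript per length in every library. This ratio and that of Il1rn to Il1b were chosen after the members' values were seen, and both are descriptions.

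Gsdmd (ENSMUSG00000022575, chr15:75862327-75867408, + strand), which encodes the pore-forming substrate of both caspases, rose with RANKL. Female M-CSF+RANKL libraries had 235, 296 and 260 CPM of Gsdmd, against 72.5, 74.8 and 82.4 CPM in female M-CSF libraries. In males its level was 273, 257 and 247 CPM with RANKL, against 64.8, 79.3 and 66.0 CPM in M-CSF alone. The treatments were separated by a wide gap in both sexes, with a mean log2 fold change of 1.83 ± 0.08 (SE, adjusted p = 2.18e-10). With RANKL, Gsdmd had the highest level per length of the 9 members.

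The cytokines also went in opposite directions. Il1b (ENSMUSG00000027398, chr2:129364570-129371139, - strand), which encodes the IL-1β precursor, was scarce throughout, with 272 counts in all over the 6 M-CSF+RANKL libraries and 88 over the 6 M-CSF libraries. Female libraries had 2.51, 4.06 and 4.30 CPM of Il1b with RANKL, against 1.41, 1.83 and 1.27 CPM in M-CSF alone, and male libraries had 2.77, 1.76 and 2.85 CPM with RANKL, against 1.21, 0.640 and 0.905 CPM in M-CSF alone. Within each sex the treatments did not overlap, but the lowest male RANKL library lay under the highest female M-CSF library. Il1b rose by 1.34 ± 0.23 on the log2 scale (SE, adjusted p = 0.000143). The 15 neutrophil and granule markers summed with RANKL to 151 to 413 CPM (females) and 101 to 147 CPM (males), against 295 to 558 CPM (females) and 215 to 259 CPM (males) in M-CSF alone. Of the 12 of these markers tested, 2 fell with RANKL, Mmp8 (-1.80 ± 0.17) and Csf3r (-1.06 ± 0.19), which were named after their values were seen, and the other 10 did not pass, among them S100a8 (-0.14 ± 0.44), S100a9 (-0.10 ± 0.50) and Mpo (0.15 ± 0.20). Their part in the Il1b result was not tested.

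Il18 (ENSMUSG00000039217, chr9:50554827-50581840, + strand), which encodes the IL-18 precursor, fell nearly as far as Nlrp3. Its level was 2.25, 2.06 and 3.67 CPM in female M-CSF+RANKL libraries, against 13.3, 10.1 and 12.9 CPM in female M-CSF libraries. In male libraries it was 1.42, 1.43 and 1.65 CPM with RANKL, against 12.5, 10.2 and 9.95 CPM in M-CSF alone. Every RANKL library was far below every M-CSF library, and the mean log2 fold change was -2.51 ± 0.16 (SE, adjusted p = 1.04e-08), a 5.71-fold lower level. Bco2, a carotenoid-cleaving enzyme gene that overlaps Il18 on the other strand, had 48 counts with RANKL and 147 in M-CSF alone, against 186 and 837 for Il18.

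Il1rn (ENSMUSG00000026981, chr2:24336853-24351494, + strand), which encodes the antagonist of the IL-1 receptor, had the largest rise of the members. Female M-CSF+RANKL libraries had 106, 131 and 131 CPM, against 27.5, 27.9 and 20.5 CPM in female M-CSF libraries. Male M-CSF+RANKL libraries held 107, 132 and 118 CPM of Il1rn, against 17.7, 35.2 and 22.3 CPM in male M-CSF libraries. No M-CSF library came near the RANKL libraries, and the mean log2 fold change was 2.26 ± 0.15 (SE, adjusted p = 1.24e-08), a 4.79-fold rise. The highest M-CSF value, 35.2 CPM, belonged to male replicate 2, the library with the high interferon-stimulated genes; its part in the result was not tested, and without it the male log2 fold change was 2.56 in place of 2.24. Il1rn exceeded Il1b per length in every library, by a median of 13.8 times in M-CSF+RANKL libraries (10.5 to 25.9, n = 6), against 6.16 times in M-CSF libraries (5.06 to 18.9, n = 6). These ranges overlapped through male M-CSF replicate 2, which had 9 counts of Il1b as well as the high Il1rn. The M-CSF ratios rest on between 9 and 24 counts of Il1b per library.

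**Figure D2:**
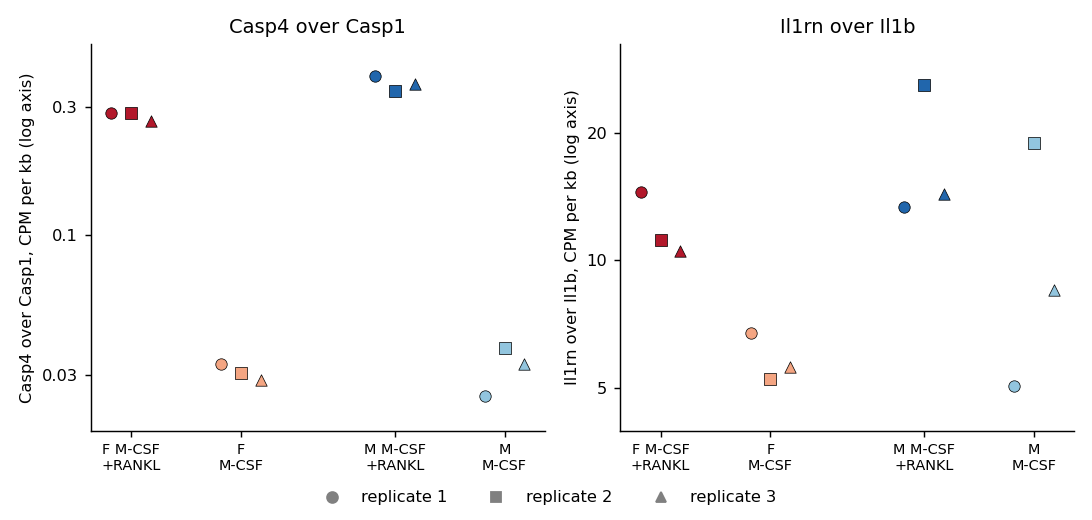
Ratio of Casp4 to Casp1 (left) and of Il1rn to Il1b (right) in each library, from CPM per kilobase of exon, on log axes. Points are single libraries, with F female and M male; the left panel shows 2 separated ranges (0.266 to 0.391 with RANKL, 0.0252 to 0.0380 in M-CSF alone), and in the right panel male M-CSF replicate 2 lies among the M-CSF+RANKL libraries.

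**Figure D3:**
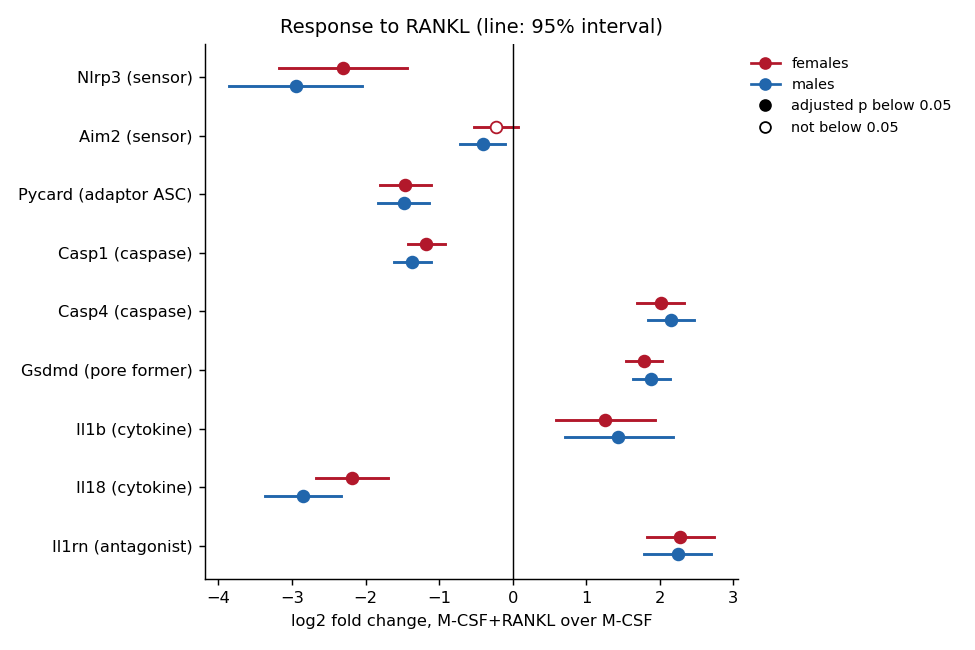
Log2 fold change of each member, M-CSF+RANKL over M-CSF, in females (upper point of each pair) and males (lower point), with 95% intervals as lines. Filled points had an adjusted p below 0.05 (edgeR); 4 members lie right of 0 and 5 left of it in both sexes, and the open point is Aim2 in females.

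The order of levels per length changed with treatment. In M-CSF+RANKL libraries Gsdmd came first at 110 ± 8.98 CPM per kilobase of exon (SD, n = 6), followed by Casp1 at 31.8 ± 4.09, Il1rn at 21.9 ± 2.24, Casp4 at 10.1 ± 0.982, Aim2 at 9.58 ± 0.828, Nlrp3 at 5.45 ± 3.07, Pycard at 4.87 ± 0.710, Il18 at 2.02 ± 0.824 and Il1b at 1.59 ± 0.506. The libraries' ranges of the neighbours Casp4 and Aim2, Aim2 and Nlrp3, Nlrp3 and Pycard, and Il18 and Il1b overlapped. In M-CSF libraries Casp1 came first at 76.4 ± 5.82 CPM per kilobase, followed by Nlrp3 at 32.9 ± 9.91, Gsdmd at 30.8 ± 2.95, Pycard at 13.5 ± 1.99, Aim2 at 12 ± 1.64, Il18 at 11.1 ± 1.52, Il1rn at 4.55 ± 1.14, Casp4 at 2.39 ± 0.313 and Il1b at 0.635 ± 0.216. There, Nlrp3 and Gsdmd overlapped, as did Pycard with Aim2 and Aim2 with Il18. Il1b was last under both treatments. With the longest transcript as the length, Il1rn (47.4) stood above Casp1 (31.8) with RANKL, and in M-CSF alone Gsdmd (40.9) stood above Nlrp3 (33.2) and Aim2 (14.7) above Pycard (13.5).

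No member differed between the sexes by the adjusted test. In M-CSF+RANKL libraries 0 of 9 members passed by edgeR and 0 by DESeq2, where 0.0529% of all genes passed by edgeR. By edgeR, 445 of the 13236 genes tested had an unadjusted p below 0.05, and 1 of these was a member. That 1 was Il18, whose 3 female libraries (2.25, 2.06 and 3.67 CPM) all lay above the 3 male libraries (1.42, 1.43 and 1.65 CPM), with a female over male log2 fold change of 0.82 ± 0.26 (SE, adjusted p = 1). Without female M-CSF+RANKL replicate 3 that difference was 0.52. The difference of Nlrp3 in the same libraries was 0.65 (95% interval -0.22 to 1.53) and was 0.06 without female replicate 3.

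In M-CSF libraries 0 of 9 members passed by edgeR and 0 by DESeq2, where 0.0453% of all genes passed by edgeR. By edgeR, 478 of the 13236 genes tested had an unadjusted p below 0.05, and 0 of these were members. Il1b was the single member whose female libraries (1.41, 1.83 and 1.27 CPM) all lay above the male ones (1.21, 0.640 and 0.905 CPM). The male values rest on 13, 9 and 13 counts. How many of all genes separate so by sex was not counted, here or for Il18 above. The female over male log2 fold change of Il1b was 0.74 (95% interval -0.04 to 1.53, adjusted p = 0.873). Neutrophil and granule markers were also higher in the female M-CSF libraries (295 to 558 CPM) than in the male ones (215 to 259 CPM); their part in the Il1b values was not tested.

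The response to RANKL itself was compared between the sexes by the interaction term. It passed for 0 of 9 members by edgeR and for 0 by DESeq2, with 0 at an unadjusted p below 0.05, and for 0.00% of all genes, of which 260 had an unadjusted p below 0.05. Il18 had the largest difference, with log2 fold changes of -2.18 in females and -2.85 in males, a difference of 0.67 (95% interval -0.03 to 1.38, adjusted p = 1). Nlrp3 followed, at -2.31 and -2.95, a difference of 0.64 (95% interval -0.56 to 1.84), which was 0.06 without female M-CSF+RANKL replicate 3. For Casp4, Gsdmd, Pycard and Casp1 the 95% intervals of the difference ran from -0.57 at the lowest to 0.55 at the highest, and each held 0. Those of Aim2 (-0.25 to 0.60), Il1rn (-0.59 to 0.66) and Il1b (-1.19 to 0.82) reached further and also held 0.

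**Figure D4:**
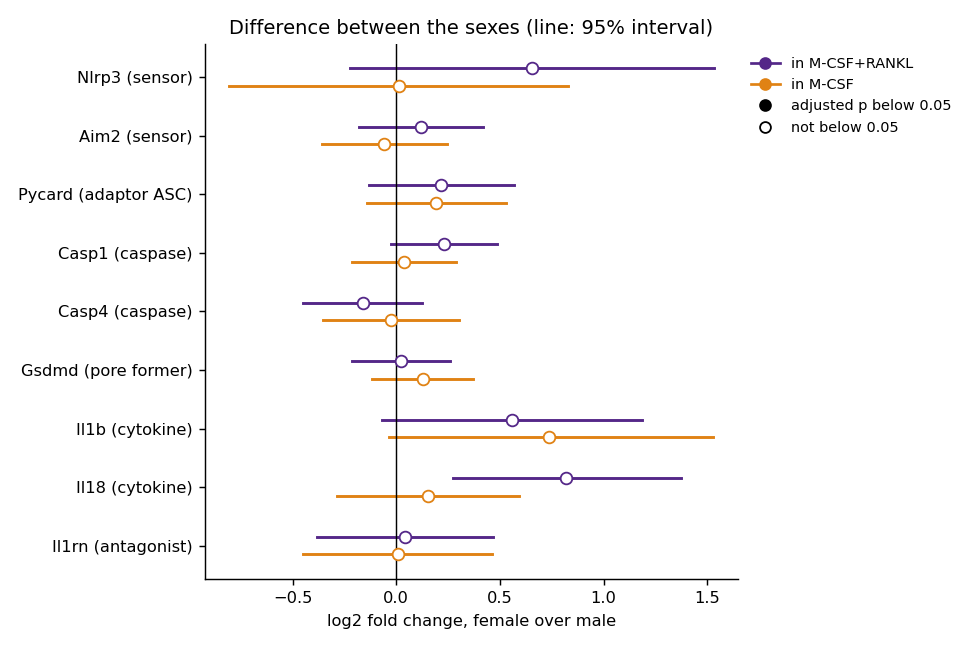
Log2 fold change of each member, female over male, in M-CSF+RANKL (upper point of each pair) and in M-CSF (lower point), with 95% intervals as lines. All points are open because none had an adjusted p below 0.05 (edgeR); the Il18 interval in M-CSF+RANKL is the one that leaves out 0.

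Other genes of the pathway were counted from lists written with earlier results of these data known. Each count stands beside the 33.4% of all genes tested that rose and the 31.3% that fell, and each median beside the 0.02 of all genes. Of 9 other inflammasome sensors tested, 3 rose and 6 fell with RANKL, with a median log2 fold change of -0.89. Mefv, which encodes the RhoA-linked sensor pyrin, rose by 4.23 ± 0.12 (SE, adjusted p = 6.35e-12), to means of 59.1 and 50.5 CPM in female and male M-CSF+RANKL libraries, against 3.90 and 2.19 CPM in female and male M-CSF libraries. Naip1, which encodes a sensor of bacterial secretion systems, rose by 4.14 ± 0.42, and Nlrp10 by 1.62 ± 0.17. Nlrp1b, the sensor of anthrax lethal toxin, had a log2 fold change of -2.46 ± 0.15. The sensors thus moved both ways, as the members did. Naip1 belongs to a family of near-identical copies among which reads may be split. It had 359 counts with RANKL and 16 in M-CSF alone. Its relatives Naip2, Naip5 and Naip6, named after their values were seen, had log2 fold changes of -0.89, -1.39 and -1.20.

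Among 18 partners and regulators of inflammasomes, 4 rose and 13 fell, with a median log2 fold change of -1.03. The largest rise was that of Pstpip1, which encodes a binding partner of pyrin, at 2.54 ± 0.08 (SE, adjusted p = 1.75e-11). Its mean levels were 585 and 656 CPM in female and male M-CSF+RANKL libraries, against 112 and 101 CPM in female and male M-CSF libraries. Nlrc3, an inhibitory NLR gene, had -2.67 ± 0.14, Gm12250, the interferon-inducible GTPase gene also called Irgb10, -1.90 ± 0.30, and Tmem173, which encodes the DNA-pathway adaptor STING, -1.82 ± 0.11. Pyrin's gene and that of its partner therefore both rose, while the genes of STING and Nlrc3 fell.

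On the ligand and receptor side, 1 of 8 further IL-1 family ligands was abundant enough to test. Il1f9, which encodes IL-36γ, rose by 5.34 ± 0.29 (SE, adjusted p = 1.69e-09), with 702 counts over the M-CSF+RANKL libraries and 14 over the M-CSF libraries. Il1a, the gene of IL-1α, was barely detected, at 20 counts with RANKL and 13 in M-CSF alone. Of 8 receptors and decoys tested, 2 rose, 5 fell and 1 did not pass, with a median of -0.78. Il1r1, which encodes the signalling receptor that IL-1 receptor antagonist blocks, rose by 6.50 ± 0.38 (adjusted p = 2.55e-09), with 521 counts over the 6 M-CSF+RANKL libraries and 4 over the 6 M-CSF libraries. Il1rl2, the IL-36 receptor gene, rose by 1.27 ± 0.27, whereas Il1rl1, the IL-33 receptor gene, had -4.19 ± 0.19 and Il18rap, an IL-18 receptor subunit gene, -1.53 ± 0.27. Il1rap, which encodes the accessory chain that the IL-1 receptor needs, had -0.85 ± 0.14 (adjusted p = 0.000104), and the decoy receptor gene Il1r2 had -0.94 ± 0.32 (adjusted p = 0.0203). Il18r1, the other IL-18 receptor subunit gene, had 3 counts with RANKL and 0 in M-CSF alone and was not tested. The receptor genes of IL-1 thus moved both ways, with Il1r1 up and Il1rap and Il1r2 down; Il1rap, Il1r2 and Il18r1 were named after their values were seen.

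Downstream of the receptors, 6 of 16 IL-1 receptor signalling genes rose, 3 fell and 7 did not pass, with a median of -0.12, and the share of risers was close to that of all genes. Irak3, which encodes a kinase-like inhibitor of this signalling, had the largest change, -2.07 ± 0.09 (SE, adjusted p = 1.94e-10). Irak2, Ikbkg and Traf6, genes of a receptor-associated kinase, the regulatory subunit of the IkB kinase and a ubiquitin ligase that RANK also uses, rose by 1.18 ± 0.07, 1.12 ± 0.07 and 0.89 ± 0.16.

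**Figure D5:**
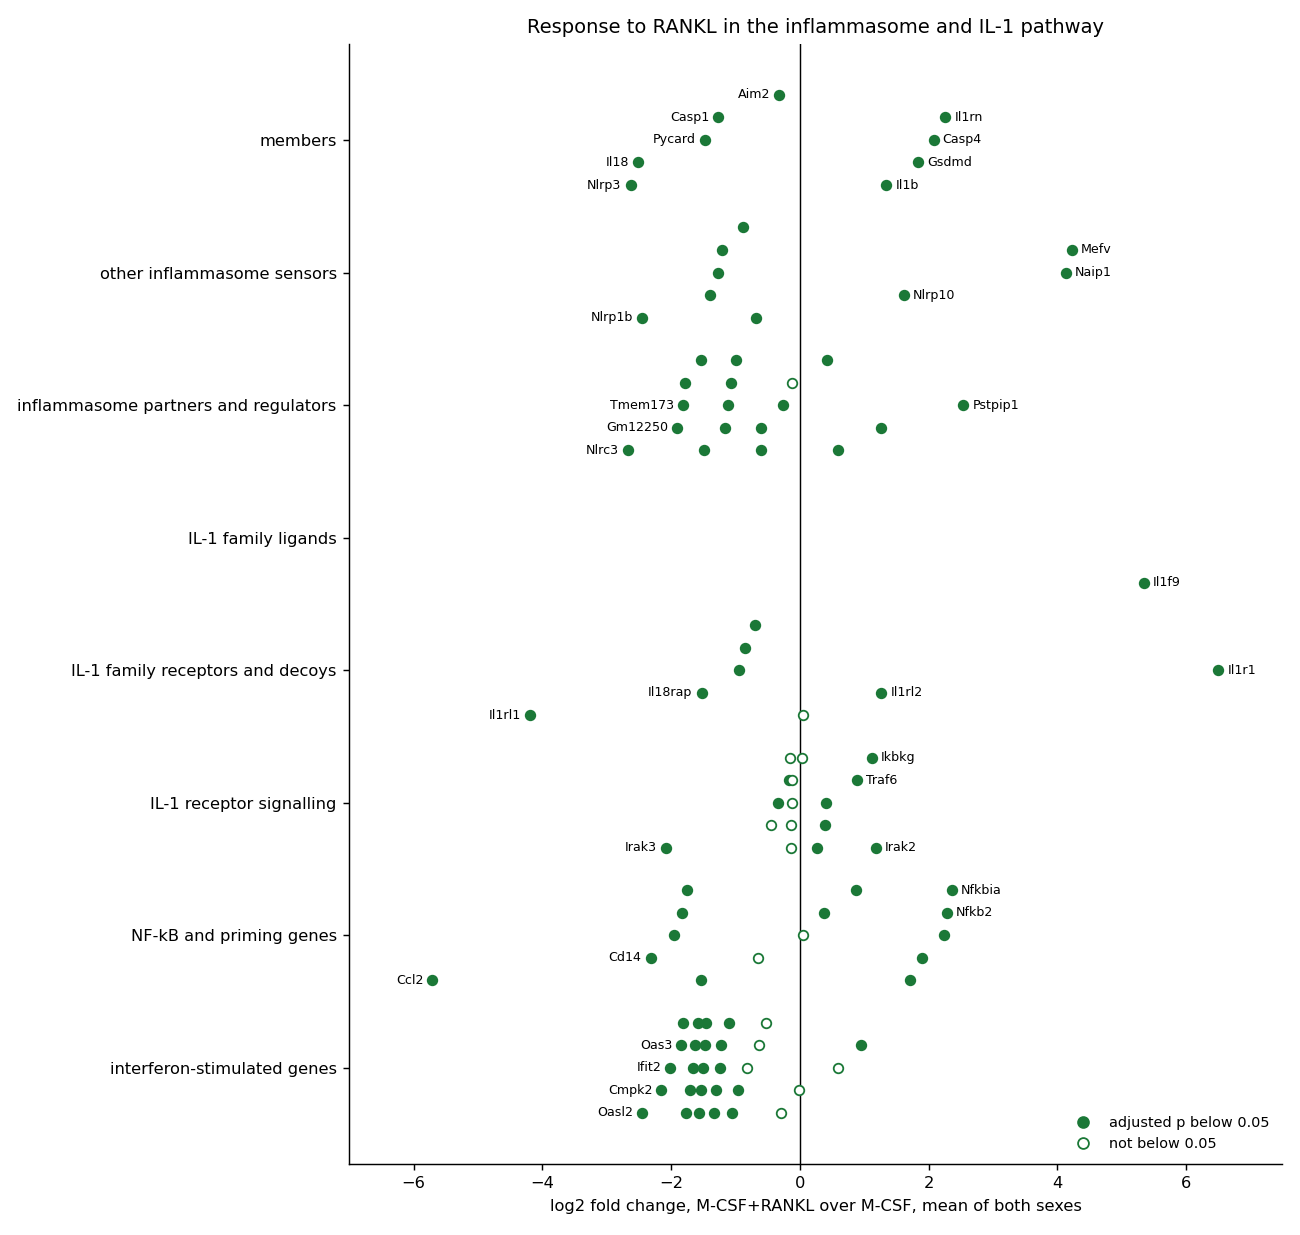
Log2 fold change (M-CSF+RANKL over M-CSF, mean of both sexes) of each tested gene of the members and of 7 related lists, with 1 point per gene spread vertically within its list for legibility. Filled points had an adjusted p below 0.05 (edgeR); the labelled extremes run to Il1r1 at 6.50 on the right and Ccl2 at -5.71 on the left, and each list but that of the ligands, where 1 gene was tested, has points on both sides of 0.

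The genes most like Nlrp3 over the 12 libraries were found by the smallest root mean square difference of log2 CPM after centring each gene on its own mean, among genes with a mean of at least 5 CPM. They were Lilr4b at 0.20, Rcsd1 at 0.26 and Ets2 at 0.28, where the median over genes was 1.46. Their log2 fold changes with RANKL were -2.81, -2.85 and -2.45, beside -2.63 for Nlrp3. For Il1b the nearest were Spint1 at 0.25, Map2k3os at 0.30 and Zswim7 at 0.33, where the median was 0.79, and these 3 rose by 1.27, 1.27 and 1.39. The 12 libraries share their treatment split and Il1b has few counts, so likeness here is a description. Lilr4b has a near-identical neighbour, which makes its count uncertain.

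In the authors' deposited table of comparisons, which lists 10255 genes, 8 members are present, all but Il1b. All 8 have there the sign found here in both sexes, and the authors' deposited table gives a false discovery rate below 0.05 for 7 of them in females and 8 in males. For Aim2 in females the authors' deposited table gives a log2 fold change of -0.22 with a false discovery rate of 0.200.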

How the data were processed

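Gene counts deposited by the authors were used as they stand, 1 column for each of the 12 libraries. Per the submitters' processing notes, reads were handled with fastp, STAR 2.7.3a and edgeR on mm10; per the labels' protocols, libraries came from a stranded poly(A) mRNA kit. Which program counted the reads, on which strand and with which annotation is not given in the sources used here. The authors' deposited table of log2 fold changes and false discovery rates (adjusted p-values) was used for 1 side-by-side reading.

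Counts were filtered with filterByExpr (minimum count 10), scaled by TMM and tested in 1 fit of 4 group means with edgeR 4.0.16 (R 4.3.3; quasi-likelihood test, Benjamini-Hochberg over 13236 genes, threshold 0.05); SE is the log2 fold change over the root of F. Ratios between members were chosen after the values were seen, so the permutation test run on them was not used. The fitting was also run on simulated counts, in which far fewer genes changed than passed here. That run does not show how scaling behaves under changes this broad, and no result rests on it. Members were all named; from each list up to 4 passing genes with the largest change were named, and the 3 genes most like Nlrp3 and Il1b. The members and lists were chosen with earlier results of these data known. Coordinates and exon lengths are from GENCODE vM21 (23855 of 23863 gene IDs matched), upstream sequences from RefSeq. Alternatives were RLE scaling, no count filter, DESeq2 1.42.0, a replicate block, the 6 libraries compared alone, the longest transcript as length, and leaving out each library. Within a sex, same-numbered M-CSF+RANKL and M-CSF libraries deviated together (r 0.302 to 0.706, against -0.618 to -0.010 for other numbers), so the numbers appear to pair libraries. Deviations were taken from each group's own mean, so positive values for same numbers force negative ones elsewhere. Between the sexes, replicates 1, 2 and 3 had r of -0.498, -0.0995 and 0.521 with RANKL, and -0.093, 0.0002 and 0.419 in M-CSF alone. Where the pairing comes from is not given in the labels.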

Additional observations from a re-analysis of the deposited data

Results flagged for a closer look

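Il18 in female M-CSF+RANKL replicate 3, at 3.67 CPM, stood apart from the other 5 M-CSF+RANKL libraries, which lay between 1.42 and 2.25 CPM. It was the single case among 18 groups of 6 libraries examined (9 members, 2 treatments), and chance gives about 1 such case in 20 groups. The same library had the highest mean log2 CPM of macrophage (5.54), neutrophil (4.61) and interferon-stimulated genes (3.55) among the M-CSF+RANKL libraries; their part in the Il18 value was not tested. Without it, Il18 had a log2 fold change of -2.47 in females, against -2.18 with it.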

How the results depend on the processing

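Of the members' RANKL responses, all kept their direction under every alternative run, and all kept their call except Aim2 in males, which did not pass without male M-CSF+RANKL replicate 1 (-0.33) or male M-CSF replicate 3 (-0.26). The number of members that passed was between 8 and 9 in males when each library was left out. With the replicate block, no member's call changed (Nlrp3 had -2.69, and 8 of 9 members passed in females), and 9401 genes passed in the mean of both sexes, against 8562 without the block. Female minus male in M-CSF+RANKL, 7 genes passed, but 11 with no count filter, 20 by DESeq2 and between 6 and 12 when each library was left out (12 without female M-CSF+RANKL replicate 2). Female minus male in M-CSF, 6 genes passed, but 12 with no count filter, 16 by DESeq2, 10 with only the 6 libraries compared and between 6 and 9 when each library was left out. The cause was not tested. Uncalled differences between the sexes changed sign under some alternative in 5 cases in M-CSF+RANKL, 11 in M-CSF and 13 for the interaction. RLE scaling moved the median of all genes by at most 0.011. Depth limits Il1b most, with 88 counts over the 6 M-CSF libraries.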

Other observations

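Genes tied to priming of this pathway by NF-kB also moved both ways with RANKL. Of 15 tested, 7 rose, 6 fell and 2 did not pass, with a median log2 fold change of 0.06, where 33.4% of all genes rose and 31.3% fell. Ccl2, a monocyte-attracting chemokine gene, had the largest change at -5.71 ± 0.25 (SE, adjusted p = 2.41e-10, edgeR), with means of 17.8 and 15.6 CPM in female and male M-CSF+RANKL libraries, against 864 and 875 CPM in female and male M-CSF libraries. Cd14, a lipopolysaccharide co-receptor gene, had -2.32 ± 0.15. Nfkbia and Nfkb2, which encode an inhibitor of NF-kB and the precursor of its alternative pathway, rose by 2.36 ± 0.11 and 2.29 ± 0.06.

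Of 29 interferon-stimulated genes tested, 22 fell, 1 rose and 6 did not pass in the mean of both sexes, with a median of -1.46. The largest changes were those of Oasl2 (-2.46 ± 0.35), Cmpk2 (-2.15 ± 0.41), Ifit2 (-2.01 ± 0.39) and Oas3 (-1.84 ± 0.30; SE). In females alone 12 fell and 2 rose, and in males alone 24 fell and 1 rose. Without male M-CSF replicate 2, the library in which these genes averaged 5.09 on the log2 scale, 16 fell and 1 rose in males, 16 fell and 2 rose in females, and the median of both sexes was -0.92; leaving it out was chosen after seeing the data. Whether the response of this list differs between the sexes was not tested as a list, and 0 of all genes tested passed the interaction term by edgeR or DESeq2 (260 at an unadjusted p below 0.05 by edgeR).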
